A study of Mus musculus with 12 samples.

Results

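The comparison described here is that of natural killer (NK) cells from bone marrow with NK cells from spleen in mice that lack the microRNA miR-142. The labels put 3 arrays in the group miR142 KO bone marrow and 3 in the group miR142 KO spleen, so 6 of the 12 arrays of the series make the comparison. It was made over every probe set that the platform annotation gives exactly 1 gene symbol, which was 21789 of 35556 probe sets, standing for 19938 genes. All mice were of the strain C57BL6, 7 to 10 weeks old and matched for age and sex, and no group was treated. The cells of all groups were sorted as CD3-negative and NK1.1-positive, and the 6 wild type arrays, 3 of each tissue, served as the reference for the same tissue difference in mice that have miR-142. How the knockout allele was made, whether other cell types of these mice lack miR-142 too, and whether an array holds cells of 1 mouse or of a pool is not stated in the labels. Arrays of 1 group are labelled as biological replicates. RNA was amplified from inputs of 500 pg to 50 ng, with no value for each array.

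NK cells are innate lymphocytes that kill infected or transformed cells and secrete cytokines. They form in the bone marrow, and in mice they mature from CD27-positive cells that lack the integrin CD11b to CD11b-positive cells that also carry KLRG1. The receptors CXCR4 and S1PR5 act against each other in this step, CXCR4 holding cells in the marrow and S1PR5 drawing mature cells out into blood and spleen. The NK1.1 gate does not part NK cells from type 1 innate lymphoid cells (ILC1), a related lineage that stays in tissues. miR-142 is made in blood cells, and both strands of its hairpin act as mature microRNAs that pair with messenger RNAs through the seed, bases 2 to 8.

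The sequences that these mice lack are shown because all 6 arrays share that loss. They are from RefSeq on GRCm38.p6, and the capitals mark the seed. The 5p strand lies at chr11:87756867-87756887 and the 3p strand at chr11:87756903-87756925, both on the plus strand.
mmu-miR-142a-5p: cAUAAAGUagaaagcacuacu
mmu-miR-142a-3p: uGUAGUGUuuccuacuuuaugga

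The Mir142 probe set was measured first, since it checks the labels. On the log2 scale of the deposited signals it read 4.69, 4.70 and 4.26 in knockout bone marrow and 4.05, 4.59 and 4.50 in knockout spleen. The wild type arrays read 7.10, 8.25 and 7.14 in bone marrow and 6.77, 7.17 and 7.58 in spleen, above every knockout array. Its tissue difference in the knockout was 0.40 ± 0.32 (standard error), which did not pass (limma, adjusted p = 0.753). All 14 markers of NK cells that had been listed were bright enough to be tested, among them the NK1.1 gene Klrb1c. Their summed signal had a log2 value of 15.44 to 15.54 in knockout bone marrow and 15.65 to 15.74 in knockout spleen, so the 3 spleen arrays lay above the 3 bone marrow arrays.

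The quartiles of the arrays were alike, with medians between 5.75 and 5.87. Array numbers in the labels fall into a run of 7 and a run of 5. All knockout bone marrow arrays and knockout spleen 3 are in run 1, and knockout spleen 1 and 2 are in run 2, so run and tissue overlap in the knockout. The run was a covariate of the fit, estimated with the help of the wild type arrays. No gene was called for the run itself by limma (0 of 11963), with 546 at an unadjusted p under 0.05 (4.56%). Knockout bone marrow arrays correlated with each other across genes at 0.9685 to 0.9805 and with knockout spleen arrays at 0.9626 to 0.9787, so the tissues were close. The first principal component of the 6 arrays, with 33.8% of the variance, put the 3 bone marrow arrays on 1 side at -22.65, -10.08 and -2.60 and the spleen arrays on the other at 7.76, 13.80 and 13.78. Knockout bone marrow 1 was the far end of that axis and knockout bone marrow 3 the array nearest to spleen.

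Few genes were called between the tissues in the knockout, which with 3 arrays a group does not show that few differed. Of 11963 genes tested, 38 passed at a Benjamini-Hochberg adjusted p under 0.05 in limma, which is 0.318% of them. Of these, 11 were higher in bone marrow (0.092%) and 27 lower (0.226%), and 22 changed over 2-fold, 7 higher and 15 lower. At an unadjusted p under 0.05 the number was 1106, or 9.25%. The 3 arrays of 1 tissue lay apart from the 3 of the other for all 38, against 16.3% of all genes tested (7.62% higher and 8.65% lower in bone marrow). The 38 were picked by a test on these same arrays, which favours such genes, so this is not separate support. The largest fitted falls in bone marrow were those of the glutathione peroxidase gene Gpx8, the transcription factor gene Klf3 and the methyltransferase gene As3mt, and the receptor and integrin genes S1pr5, Itgam and Fcgr2b fell as well. Those that rose were led by the glutathione transferase gene Gsta4 and the chemokine receptor gene Ccr2.

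The number of calls depended on knockout spleen 3, the spleen array that shares its run with the bone marrow arrays. Its removal makes tissue and run coincide in the knockout, where only wild type arrays can then part them. A loss of calls without it therefore does not show that its values made them. Without it 1 gene passed, Klf3, and 1 gene passed where that array stood alone for spleen within run 1, again Klf3. Leaving out knockout spleen 1 gave 20 calls, knockout bone marrow 3 gave 22, wild type spleen 3 gave 21, and wild type bone marrow 1 or 2 gave 25 each. The 6 knockout arrays alone, without the run, gave 29 calls, 22 of them among the 38. Sizes were steadier than calls. Within run 1 the 38 genes had sizes from 0.54 to 2.55, and the fitted and the within-run size never differed by more than 1.37 times. Every one kept its direction there and against spleen 1 and 2 alone. Those directions were fixed in advance, since the tissues did not overlap in any of the 38 genes, so they are no further support. Of the 38, 16 passed in at least 24 of 27 alternative settings, and Klf3 passed in all 27.

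**Figure D1:**
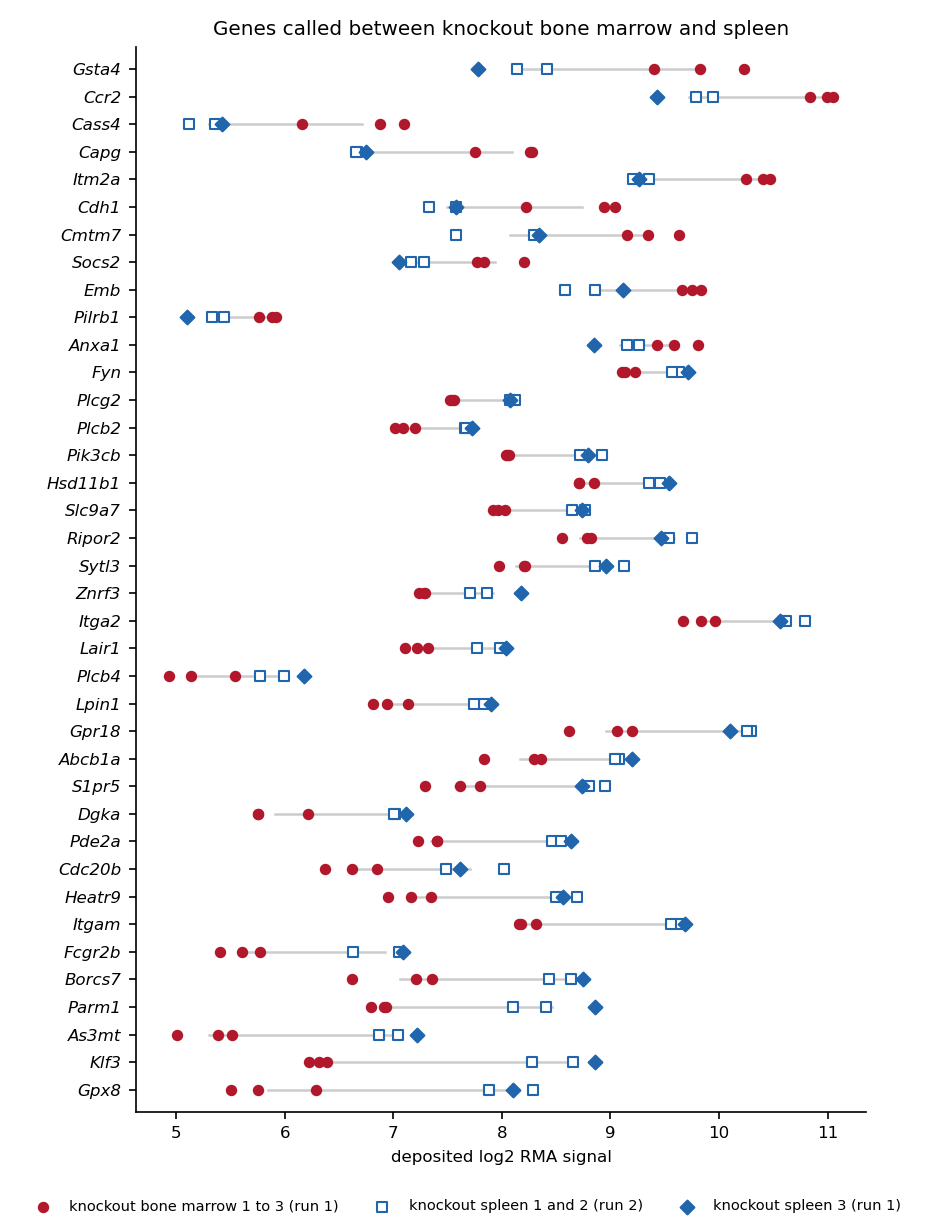
Deposited log2 signal (x axis) of the 38 genes called between the tissues in the knockout (y axis, ordered by difference); circles are the 3 bone marrow arrays, open squares spleen 1 and 2, diamonds spleen 3, and grey bars join the group means. In each row the 3 bone marrow arrays lie apart from the 3 spleen arrays, and the rows of Klf3 and Gpx8 have the widest gaps.

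**Figure D2:**
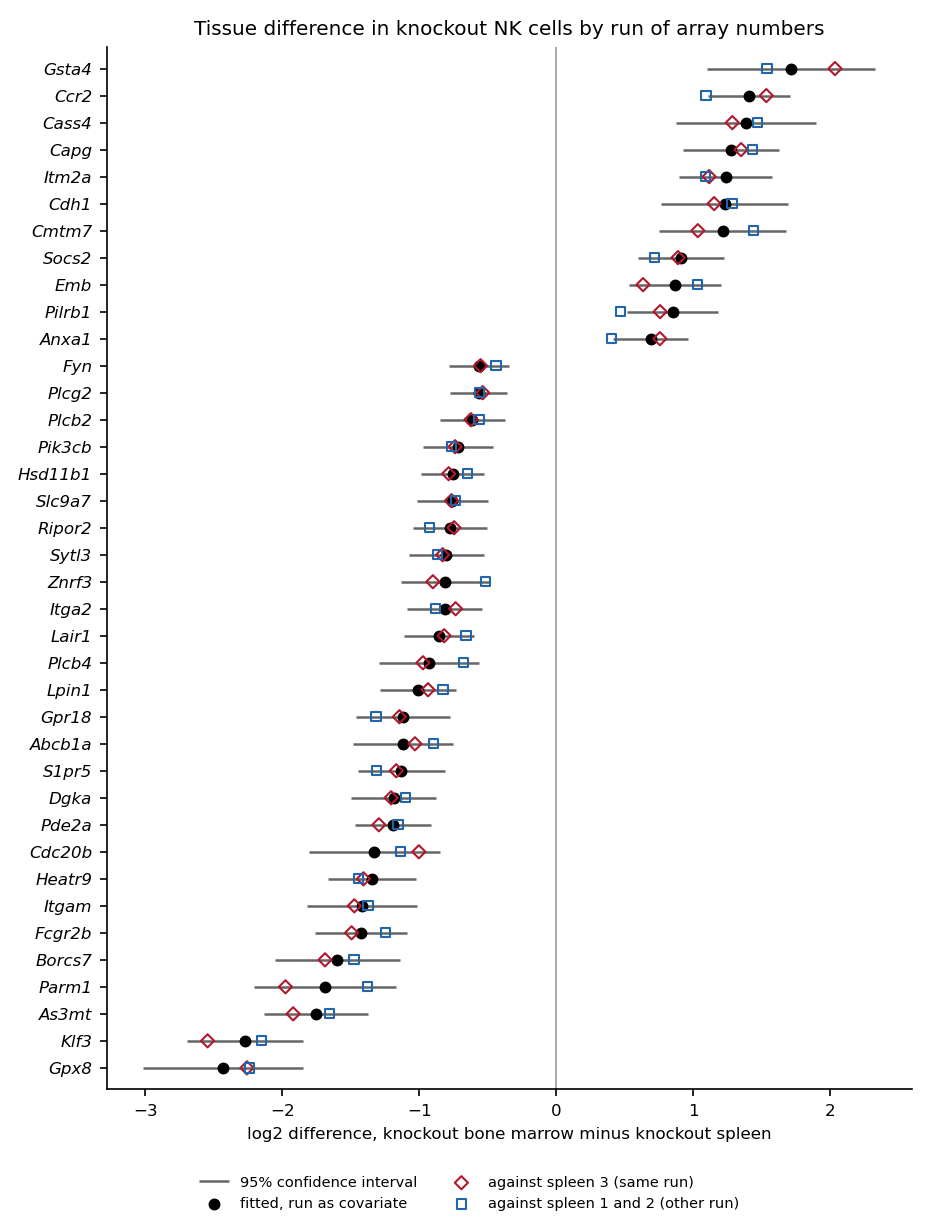
Log2 difference of knockout bone marrow minus spleen (x axis) for the 38 called genes (y axis); black points are fitted values with 95% confidence intervals, diamonds the difference from spleen 3 of the same run, and squares that from spleen 1 and 2 of the other run. All 3 kinds of value lie on the same side of 0 in every row, which the lack of overlap between the tissues fixes for diamonds and squares.

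Among transcription factors Klf3 stood out. KLF3 is a zinc finger protein of the Krüppel-like family that binds CACCC boxes and mostly represses. Klf3 read 6.23, 6.39 and 6.32 in knockout bone marrow and 8.65, 8.27 and 8.86 in knockout spleen. The 3 bone marrow arrays lay close together and far below every spleen array. It fell by 2.27 ± 0.19 on the log2 scale, 4.82-fold (limma, adjusted p = 0.001), and its difference within run 1 was -2.55. In wild type the same tissue difference was -0.95 ± 0.18 (adjusted p = 0.0115), from a level of 8.96 to 9.56 in bone marrow. The difference between the genotypes was -1.32 ± 0.28 and did not pass (adjusted p = 0.19). No other of 46 tested lymphocyte transcription factors passed, where 0.318% of all genes tested did. Their median difference was -0.06, against -0.01 for all genes tested. Zeb2, which drives terminal NK maturation, read 7.76, 7.79 and 7.69 in bone marrow and 8.96, 8.46 and 8.51 in spleen, a difference of -0.86 ± 0.18 that did not pass (adjusted p = 0.104). Eomes and Tbx21, the T-box factors of the NK lineage, stood at 0.13 ± 0.11 and -0.42 ± 0.17 (adjusted p = 0.778 and 0.472). Klf2, a relative of Klf3 that supports egress of lymphocytes, stood at -0.64 ± 0.15 (adjusted p = 0.151), with its 3 bone marrow arrays below the 3 of spleen.

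Of 17 tested genes high in mature NK cells 2 fell in bone marrow, Itgam and S1pr5, and 0 rose, against 0.226% of all genes that fell. Of the 17, 16 had a lower value, with a median of -0.47. Itgam, which encodes CD11b and defines the mature stage, read 8.18, 8.15 and 8.31 in bone marrow and 9.63, 9.55 and 9.69 in spleen. The arrays of each tissue lay close together and the groups far apart, and Itgam fell by 1.42 ± 0.18 (limma, adjusted p = 0.0056). S1pr5, the sphingosine phosphate receptor by which NK cells leave the marrow, read 7.80, 7.29 and 7.61 in bone marrow and 8.95, 8.80 and 8.74 in spleen. It fell by 1.13 ± 0.15 (adjusted p = 0.0056). Both were lower in wild type bone marrow too, Itgam by -1.07 ± 0.17 and S1pr5 by -1.23 ± 0.13 (adjusted p = 0.0053 and 0.0009). Klrg1, the inhibitory lectin receptor of terminally mature cells, read 9.71, 9.14 and 9.04 in bone marrow and 10.32, 10.30 and 10.31 in spleen. Its difference of -1.23 ± 0.27 did not pass (adjusted p = 0.124), although the groups did not overlap, and in wild type it passed at -1.48 ± 0.25 (adjusted p = 0.0071). Without knockout spleen 3, none of the 17 passed, with a median of -0.49. Fewer mature cells and less RNA per cell cannot be told apart in sorted bulk samples.

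On the list of immature NK cell genes 2 of 17 tested members rose, against 0.092% of all genes tested, and 0 fell, with a median of 0.30. Itm2a, a small membrane protein gene, read 10.47, 10.25 and 10.40 in bone marrow and 9.36, 9.21 and 9.26 in spleen. It rose by 1.24 ± 0.16 (limma, adjusted p = 0.0049). Emb, which encodes embigin, a partner of lactate transporters, rose by 0.87 ± 0.15 (adjusted p = 0.0435), from 8.58 to 9.12 in spleen to 9.66 to 9.84 in bone marrow. Itm2a passed in 24 of the alternatives and Emb in 9. These 2 rose in wild type bone marrow as well, by 0.70 ± 0.14 and 0.88 ± 0.14. Of the 17, 14 had a higher value in bone marrow and 3 a lower one, among them Kit and Il7r. Kit, the stem cell factor receptor gene, read 5.72, 5.86 and 5.83 in bone marrow and 6.62, 6.92 and 6.65 in spleen, a difference of -0.82 ± 0.17 (adjusted p = 0.0981). Il7r stood at -1.09 ± 0.37 (adjusted p = 0.364) and Cd27 at 0.19 ± 0.13 (adjusted p = 0.706).

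Homing and adhesion genes changed in both directions. Of 21 chemokine and egress receptor genes 1 rose, Ccr2, and 1 fell, S1pr5, against 0.092% and 0.226% of all genes tested. CCR2 is the receptor for the monocyte chemoattractant CCL2. Ccr2 read 11.00, 10.84 and 11.05 in knockout bone marrow and 9.95, 9.79 and 9.43 in knockout spleen. The wild type arrays of both tissues ran from 10.84 to 11.50, and the knockout spleen arrays lay below all of them. Ccr2 rose by 1.41 ± 0.14 in bone marrow (limma, adjusted p = 0.0016), while the wild type difference was 0.23 ± 0.12 (adjusted p = 0.289), and the difference between the genotypes was 1.18 ± 0.20 (adjusted p = 0.0837). Cxcr4, the receptor that retains cells in the marrow, read 10.00, 9.90 and 9.86 in bone marrow and 8.66, 9.34 and 8.85 in spleen, a difference of 1.14 ± 0.22 that did not pass (adjusted p = 0.0675). S1pr1, which serves lymphocyte exit, read 6.73, 6.32 and 6.78 in bone marrow and 7.64, 7.94 and 7.53 in spleen, a difference of -0.94 ± 0.19 (adjusted p = 0.0675). Cxcr6, a receptor of tissue-resident lymphocytes, stood at 0.92 ± 0.19 (adjusted p = 0.0867). Cx3cr1 of mature cells stood at -0.76 ± 0.23 and Cxcr3 at -0.30 ± 0.27 (adjusted p = 0.289 and 0.787).

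Of 24 integrin and adhesion genes Itgam and Itga2 fell and Cdh1 rose, where 0.226% of all genes tested fell and 0.092% rose. Itga2 encodes CD49b, an integrin carried by NK cells and absent from most ILC1. It read 9.97, 9.67 and 9.83 in bone marrow and 10.79, 10.62 and 10.56 in spleen. It fell by 0.81 ± 0.12 (limma, adjusted p = 0.0189), and in wild type by 0.50 ± 0.11 (adjusted p = 0.0285). Cdh1, the gene of the adhesion molecule E-cadherin, read 8.22, 9.04 and 8.94 in knockout bone marrow and 7.33, 7.57 and 7.58 in knockout spleen. It rose by 1.23 ± 0.21 (adjusted p = 0.0367), while all wild type arrays lay between 5.67 and 5.95. The ILC1 integrin gene Itga1, which encodes CD49a, read 9.10 to 9.62 over the 6 knockout arrays and stood at 0.09 ± 0.24 (adjusted p = 0.947), so no tissue difference was detectable with 3 arrays a group. Of 24 genes of ILC1 and tissue residency 1 rose, Socs2, against 0.092% of all genes tested, and 0 fell, with a median of 0.16. That median was 0.06 without knockout spleen 3, 0.07 without knockout bone marrow 3 and 0.26 without knockout bone marrow 1.

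**Figure D3:**
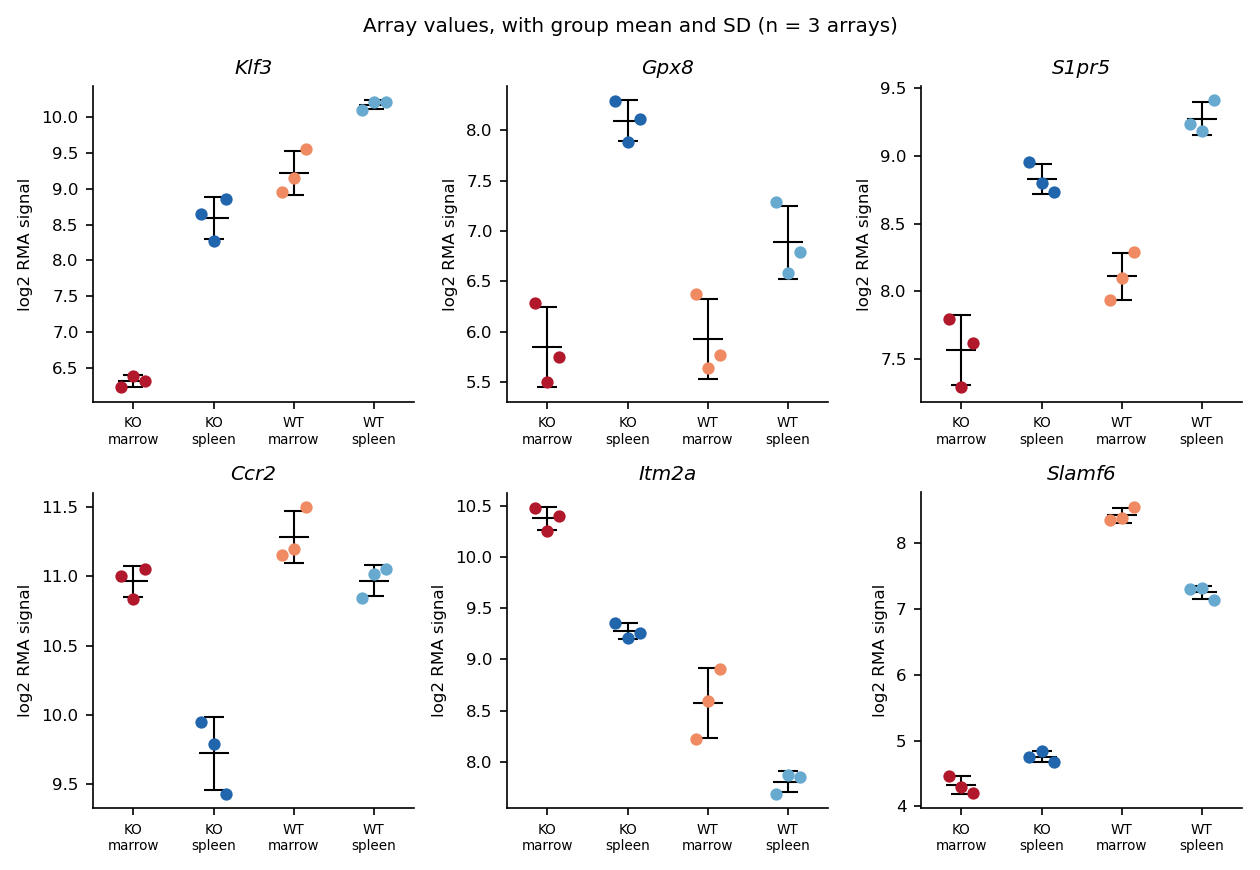
Log2 signal (y axis) of 6 genes in each of the 12 arrays, by group (x axis; KO knockout, WT wild type); points are arrays, bars the mean and SD of 3. Klf3, Gpx8 and S1pr5 are lower in knockout bone marrow than spleen, Ccr2 and Itm2a are higher, and Slamf6 is dim in all 6 knockout arrays.

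The remaining rises were in genes of diverse roles. Gsta4 encodes a glutathione transferase that clears products of lipid peroxidation. It read 10.23, 9.41 and 9.82 in bone marrow and 8.14, 8.42 and 7.78 in spleen. It rose by 1.72 ± 0.28 (limma, adjusted p = 0.0269), the largest rise. The 6 wild type arrays lay between 4.96 and 5.70, with a difference of 0.04 ± 0.25. The wild type means, 5.38 in bone marrow and 5.33 in spleen, lay below the dimness limit for testing, 5.49. Log2 signals are compressed there, so the wild type value does not show that a tissue difference is absent. Cass4, a gene of the Cas family of adhesion scaffolds, read 6.88, 6.16 and 7.10 in bone marrow and 5.36, 5.12 and 5.43 in spleen, where it was as dim as in the wild type arrays. Cass4 rose by 1.38 ± 0.23 (adjusted p = 0.0322), but its means in the other 3 groups lay below the dimness limit for testing, 5.49, so it was tested only through the group where it is high and the size is uncertain. Among called genes, Pilrb1 in knockout spleen and As3mt and Plcb4 in knockout bone marrow also had means below that limit, which makes their sizes uncertain too. Capg, which encodes an actin capping protein, read 8.26, 8.28 and 7.76 in bone marrow and 6.67, 6.66 and 6.75 in spleen, and rose by 1.28 ± 0.16 (adjusted p = 0.0049). Capg is among the genes that were also higher in wild type bone marrow, at 0.94 ± 0.14. Cmtm7, a gene of the MARVEL membrane proteins, rose by 1.22 ± 0.21 and by 1.12 ± 0.19 in wild type.

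Socs2, a feedback inhibitor of cytokine signalling, was the 1 member of 38 cytokine receptor and JAK-STAT genes that passed, against 0.318% of all genes tested. It read 7.78, 7.84 and 8.21 in bone marrow and 7.17, 7.28 and 7.05 in spleen, a rise of 0.91 ± 0.14 (limma, adjusted p = 0.0222). A second probe set of Socs2 stood at 0.53 ± 0.21 and did not pass (adjusted p = 0.607). The related feedback genes Cish, Socs1 and Socs3 stood at 0.44 ± 0.27, -0.03 ± 0.18 and -0.07 ± 0.20, and Il2rb, the shared receptor chain for IL-2 and IL-15, at 0.00 ± 0.11. The smallest rises were those of Pilrb1, an activating paired immunoglobulin-like receptor (0.85 ± 0.15, adjusted p = 0.0435), and Anxa1, which encodes annexin A1 (0.69 ± 0.13, adjusted p = 0.0492). Anxa1 and Pilrb1 each passed in 6 of the alternatives, the lowest number among the rises, as did Fyn and Znrf3 among the falls.

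The next 8 genes that fell encode enzymes of intracellular signalling. They are set together for reading only: no list of them had been drawn up. The grouping, and the naming of Plcb4, Plcb2, Plcg2, Pik3cb and Fyn in it and of Lair1 further on, came after the values were seen, so it carries no test. Dgka encodes diacylglycerol kinase alpha, which turns diacylglycerol into phosphatidic acid. It read 5.76, 6.21 and 5.76 in knockout bone marrow and 7.01, 7.00 and 7.11 in knockout spleen, and fell by 1.19 ± 0.14 (limma, adjusted p = 0.0042). In wild type it read 9.24 to 9.41 over both tissues, with a tissue difference of 0.05 ± 0.13. Pde2a, a phosphodiesterase that breaks down cyclic AMP and cyclic GMP, read 7.40, 7.40 and 7.23 in bone marrow and 8.46, 8.54 and 8.64 in spleen. It fell by 1.19 ± 0.13 (adjusted p = 0.0019). Lpin1, a phosphatidic acid phosphatase, fell by 1.01 ± 0.13 (adjusted p = 0.0049), from 7.74 to 7.90 in spleen to 6.82 to 7.13 in bone marrow. The phospholipase C genes Plcb4, Plcb2 and Plcg2 fell by 0.93 ± 0.17, 0.61 ± 0.11 and 0.57 ± 0.09. Plcg2, which acts downstream of activating NK receptors, had the tightest arrays, at 7.52 to 7.56 in bone marrow and 8.08 to 8.12 in spleen. Pik3cb, a catalytic subunit of phosphoinositide 3-kinase, fell by 0.72 ± 0.12, and the Src family kinase gene Fyn by 0.56 ± 0.10 (adjusted p = 0.0269 and 0.0435). Fyn passed in 6 of the alternatives, Plcb2 and Plcb4 in 8 each, Plcg2 in 9 and Pik3cb in 15. Dgka, Pde2a and Lpin1 passed in 24 each. Of these 8 genes Pik3cb alone passed in wild type, at -0.53 ± 0.11 (adjusted p = 0.0172). The other wild type differences ran from -0.38 for Lpin1 to 0.05 for Dgka. No difference between genotypes passed for any of the 8 in the fit as reported, though those of Dgka and Pde2a passed with the run as a random block.

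Receptor genes formed another part of the falls. Fcgr2b encodes the inhibitory Fc receptor for immunoglobulin G. It read 5.40, 5.60 and 5.77 in bone marrow and 7.05, 6.63 and 7.09 in spleen, a fall of 1.43 ± 0.15 (limma, adjusted p = 0.0019). Its wild type difference was -0.71 ± 0.14 (adjusted p = 0.0148). Lair1, an inhibitory receptor for collagen, read 7.22, 7.32 and 7.11 in bone marrow and 7.98, 7.77 and 8.03 in spleen. Lair1 fell by 0.86 ± 0.12 (adjusted p = 0.0086), whereas its wild type value was 0.24 ± 0.11 in the other direction and did not pass (adjusted p = 0.196). The difference between the genotypes was -1.10 ± 0.17 (adjusted p = 0.0748), so this gene's opposite directions did not pass a test of the difference. Gpr18, a G protein-coupled receptor gene, read 9.06, 9.20 and 8.62 in bone marrow and 10.30, 10.26 and 10.11 in spleen, and fell by 1.12 ± 0.16 (adjusted p = 0.009). None of 36 tested NK receptor genes and none of 4 Ly49 genes passed in limma, with medians of -0.14 and -0.11. At an unadjusted p under 0.05 in limma were 6 and 1 of them, against 9.25% of all genes tested. Bone marrow arrays all lay below spleen for 15 of 36 NK receptor genes and 2 of 4 Ly49 genes, against 8.65% of all genes tested. They lay above it for 1 and 0, against 7.62%. The Ly49 genes are similar in sequence, so their probe sets can share signal.

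The largest fitted fall was that of Gpx8, although within run 1 the difference of Klf3, -2.55, was larger than that of Gpx8, -2.26. Gpx8 encodes a glutathione peroxidase of the endoplasmic reticulum. It read 6.29, 5.50 and 5.75 in bone marrow and 8.29, 7.89 and 8.11 in spleen, and fell by 2.43 ± 0.27, 5.40-fold (limma, adjusted p = 0.0019). Its neighbour on chromosome 13, Cdc20b, a relative of the mitotic regulator Cdc20, fell by 1.33 ± 0.22. As3mt, which methylates arsenic, read 5.01, 5.51 and 5.38 in bone marrow and 7.04, 6.87 and 7.22 in spleen, a fall of 1.75 ± 0.17 (adjusted p = 0.0016). Its neighbour on chromosome 19, Borcs7, a subunit of the complex that positions lysosomes, fell by 1.60 ± 0.21. In the order of gene starts in RefSeq on GRCm38.p6, no protein-coding gene comes between the members of either pair. No other called genes were neighbours in that sense. Cdc20b is on the plus strand and Gpx8 on the minus strand, and whether the genes of a pair overlap was not tested. Each pair was measured by different probe sets. The same genes were lower in wild type bone marrow, at -0.87 for Gpx8, -0.79 for Cdc20b, -0.85 for As3mt and -0.86 for Borcs7, though Gpx8 did not pass there (adjusted p = 0.0605). Parm1, a mucin-like membrane protein gene, fell by 1.69 ± 0.24 with spleen arrays at 8.10, 8.41 and 8.86 and bone marrow arrays at 6.79 to 6.93. Heatr9 and Abcb1a, the latter a drug efflux pump gene, fell by 1.35 ± 0.15 and 1.12 ± 0.17.

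Of the last 6 falls to be described, all but Itga2 were named after their values were seen. Znrf3, a ubiquitin ligase gene that removes Wnt receptors, fell by 0.81 ± 0.15 and passed in 6 of the alternatives. Sytl3, which encodes a Rab27 effector of vesicle release, fell by 0.80 ± 0.13. Ripor2, an inhibitor of RhoA, fell by 0.77 ± 0.12. Slc9a7, a sodium and proton exchanger gene, and Hsd11b1, which makes active glucocorticoid, each fell by 0.76, with errors of 0.12 and 0.10. The sixth, Itga2, is given above with the integrins. Sytl3, Ripor2, Slc9a7 and Itga2 also passed in wild type, and Znrf3 and Hsd11b1 did not.

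Promoters of 4 called genes are printed because Klf3 was the called transcription factor and its protein binds CACCC. RefSeq's table on GRCm38.p6 held 34 of the 38 genes. Each sequence is the 250 bases before the gene's start, 5′ to 3′ on the gene's own strand, and the capitals mark CACCC and its reverse complement GGGTG. They lie at chr5:64803271-64803520 (plus strand, Klf3), chr7:128062390-128062639 (plus strand, Itgam), chr9:21248444-21248693 (minus strand, S1pr5) and chrX:107403361-107403610 (minus strand, Itm2a). The first 3 fell and the last rose.
Klf3: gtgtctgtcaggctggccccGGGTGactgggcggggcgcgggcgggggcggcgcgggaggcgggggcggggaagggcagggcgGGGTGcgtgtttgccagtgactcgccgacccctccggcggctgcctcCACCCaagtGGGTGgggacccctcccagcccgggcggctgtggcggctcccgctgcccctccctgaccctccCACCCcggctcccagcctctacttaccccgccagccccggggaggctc
Itgam: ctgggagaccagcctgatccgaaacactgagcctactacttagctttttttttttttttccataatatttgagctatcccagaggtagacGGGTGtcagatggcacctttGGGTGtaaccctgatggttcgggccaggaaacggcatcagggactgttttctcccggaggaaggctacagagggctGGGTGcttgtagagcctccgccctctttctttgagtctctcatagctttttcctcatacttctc
S1pr5: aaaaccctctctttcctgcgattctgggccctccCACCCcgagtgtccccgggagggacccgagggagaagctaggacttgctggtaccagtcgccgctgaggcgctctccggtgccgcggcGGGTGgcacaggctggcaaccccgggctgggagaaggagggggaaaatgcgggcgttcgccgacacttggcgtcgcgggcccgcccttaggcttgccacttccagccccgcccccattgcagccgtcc
Itm2a: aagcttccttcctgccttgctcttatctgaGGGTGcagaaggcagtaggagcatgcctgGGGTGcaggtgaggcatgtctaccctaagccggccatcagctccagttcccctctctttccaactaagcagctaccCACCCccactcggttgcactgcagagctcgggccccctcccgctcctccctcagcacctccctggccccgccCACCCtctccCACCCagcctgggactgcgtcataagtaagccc

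The motif occurs 5 times in the Klf3 window, 3 times in that of Itgam, 2 times in that of S1pr5 and 5 times in that of Itm2a. It was found in 15 of 26 promoters of genes that fell (57.7%) and 5 of 8 of genes that rose (62.5%). The share was 57.5% of the 9559 promoters of tested genes and 51.3% of all 27025 in the table, so the called genes held it about as often as any. The T-box motif GGTGTGA, or TCACACC on the other strand, was in 1 of the 8 and in 0 of the 26, against 2.87% of the promoters of tested genes. A match describes these letters alone.

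Cytotoxic effector and cytokine genes had 0 of 28 members called in either direction in limma, with a median of -0.19 and 6 of 28 above 0. At an unadjusted p under 0.05 in limma were 12 of 28, against 9.25% of all genes tested. Bone marrow arrays all lay below spleen for 10 of 28 and above it for 3, against 8.65% and 7.62% of all genes tested. The mean centred level of the list was -0.09 to 0.05 in knockout bone marrow and 0.14 to 0.19 in knockout spleen. Prf1, the pore-forming perforin gene, read 10.57, 10.83 and 10.73 in bone marrow and 11.20, 11.24 and 11.35 in spleen. The groups did not overlap, and the difference of -0.54 ± 0.15 did not pass (adjusted p = 0.245). In wild type the Prf1 difference was -0.64 ± 0.13 and passed (adjusted p = 0.0215). Gzma and Gzmb, the granzymes that perforin delivers, stood at -0.26 ± 0.11 and -0.19 ± 0.14. The chemokine genes Ccl3, Ccl4 and Ccl5 stood at -0.52 ± 0.16, -0.72 ± 0.19 and -0.19 ± 0.10, and Ifng, the gene of interferon gamma, at -0.70 ± 0.33 with arrays from 7.80 to 9.41 that overlapped. Tnfsf10, the death ligand gene TRAIL, stood the other way at 0.78 ± 0.18 (adjusted p = 0.141). Immediate early genes, which respond to stimulation and to handling of cells, had 0 of 32 called in limma. At an unadjusted p under 0.05 were 5 of 32, against 9.25% of all genes tested. The median of the list, -0.24, was -0.02 without knockout bone marrow 3 and -0.02 without knockout spleen 3.

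Cell division genes were higher in some knockout bone marrow arrays and not in others. None of 75 tested mitosis genes and none of 51 DNA replication genes passed in limma, with medians of 0.55 and 0.23. At an unadjusted p under 0.05 in limma were 7 and 8 of them, against 9.25% of all genes tested. The replication median was 0.04 without knockout bone marrow 1, 0.02 without knockout spleen 3 and 0.36 without knockout bone marrow 3. The mean centred level of the mitosis list was 1.21, 0.28 and -0.53 in knockout bone marrow and -0.08, -0.51 and -0.59 in knockout spleen. Bone marrow 1 was far above the rest, and bone marrow 3 lay among the spleen arrays. Mki67, the gene of the proliferation marker Ki-67, read 9.99, 9.05 and 7.56 in bone marrow and 8.23, 8.05 and 7.95 in spleen, a difference of 0.42 ± 0.55. Of the mitosis genes, 5 of 75 had bone marrow arrays that all lay above spleen, a share near the 7.62% of all genes tested. The median of the list was 0.11 without knockout bone marrow 1, 1.07 without knockout bone marrow 3 and 0.11 without knockout spleen 3. In wild type the 3 bone marrow arrays stood at 1.19, 0.81 and 0.35 and those of spleen at -0.40 to -0.91. There 44 of 75 mitosis genes and 21 of 51 replication genes passed, all higher in bone marrow, against 4.34% of all genes tested. The median difference between the genotypes was -0.92 over the mitosis list, and 0 of its genes passed that test. With the mitosis level of each array as a covariate beside the run, 48 genes passed in the knockout, 32 of them among the 38.

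Ribosome biogenesis genes, which build ribosomes in growing cells, gave a small and even difference, as did the ribosomal protein and oxidative phosphorylation lists given below. The centred level of the ribosome biogenesis list was 0.02, 0.15 and 0.10 in knockout bone marrow and -0.13, -0.14 and -0.09 in knockout spleen, so the tissues did not overlap. Of 53 tested genes 48 had a higher value in bone marrow. Bone marrow arrays all lay above spleen for 20 of them and below it for 1, against 7.62% and 8.65% of all genes tested. In limma 0 passed (10 of 53 at an unadjusted p under 0.05, against 9.25% of all genes tested), with a median of 0.16. Nop58, a core protein of small nucleolar ribonucleoproteins, stood at 0.43 ± 0.11 (adjusted p = 0.21). The same list had 25 of 53 genes called in wild type, all higher in bone marrow, against 4.34% of all genes tested. Among them was Nop58 at 0.93 ± 0.10. Myc, which drives this programme, read 10.78, 10.97 and 11.03 in knockout bone marrow and 10.75, 10.80 and 10.62 in knockout spleen, a difference of 0.33 ± 0.13 (adjusted p = 0.47). In wild type Myc rose by 1.22 ± 0.12 in bone marrow, from 9.27, 9.37 and 9.76 to 10.76, 10.70 and 10.78 (adjusted p = 0.0006), and the difference between the genotypes, at -0.89 ± 0.19, did not pass (adjusted p = 0.19).

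**Figure D4:**
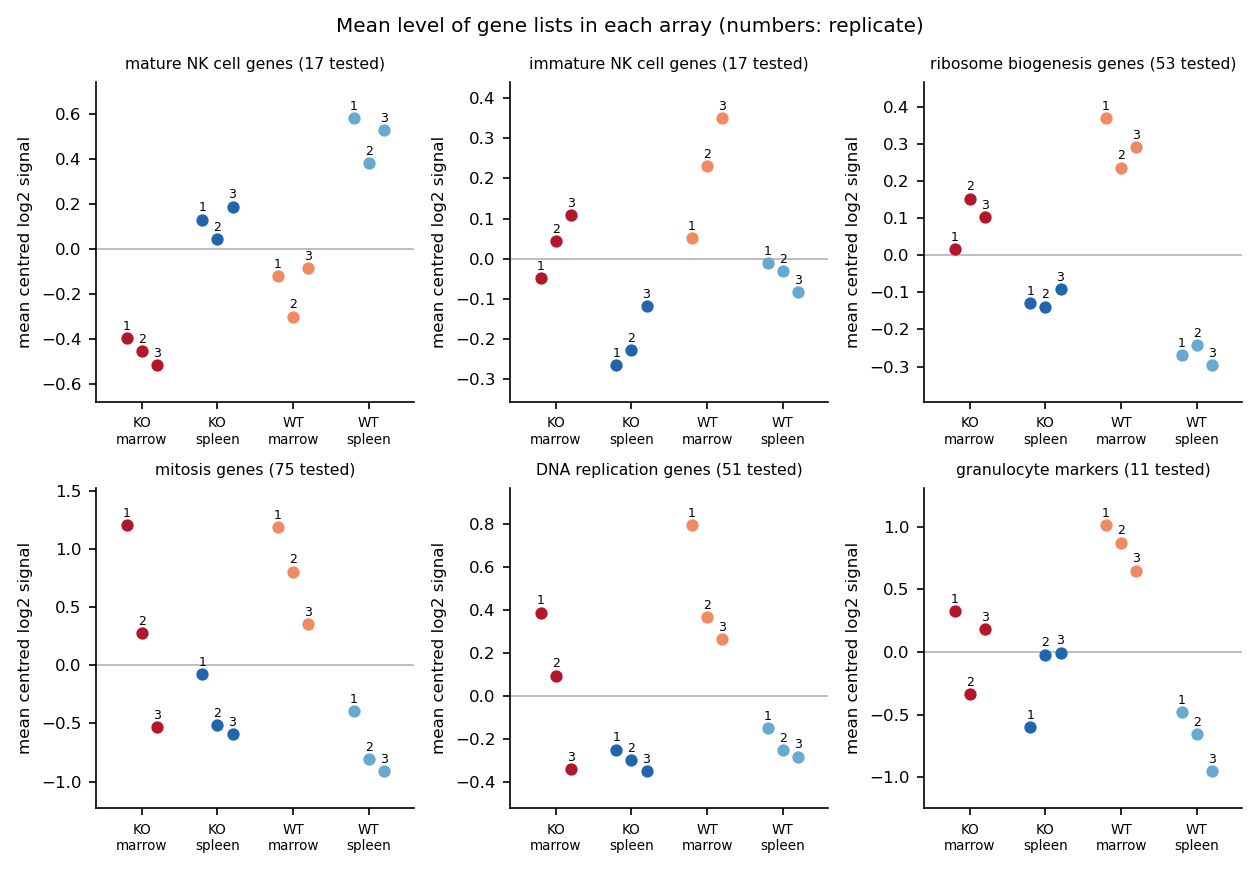
Mean centred log2 signal (y axis) of 6 gene lists in each of the 12 arrays, by group (x axis; KO knockout, WT wild type); each point is an array with its replicate number. The mature list is lower and the ribosome biogenesis list higher in all knockout bone marrow arrays than in spleen, while the mitosis level of knockout bone marrow runs from -0.53 to 1.21.

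The metabolic and other lists held 0 called genes in the knockout comparison. Their medians were 0.08 for 34 ribosomal protein genes, 0.11 for 59 oxidative phosphorylation genes, 0.14 for 20 glycolysis genes and 0.06 for 22 genes of sterol and fatty acid synthesis. They were -0.03 for 28 interferon-stimulated genes, -0.03 for 22 BCL2 family and survival genes, -0.04 for 22 genes of the transforming growth factor beta and activin pathway, 0.28 for 18 histone genes and -0.02 for 10 other microRNA genes. Genes reported as miR-142 targets had 0 of 21 called and a median of -0.05. The 3 sex-linked genes tested, a check that the groups were matched for sex, had a median of -0.19. Most of these medians changed with single arrays. The histone median was -0.02 without knockout bone marrow 1 and 0.60 without knockout bone marrow 3, that of the microRNA genes 0.20 without knockout spleen 3, and that of the interferon-stimulated genes 0.07 without knockout bone marrow 1. The target list stood at -0.16 and the sex-linked genes at -0.43 without knockout spleen 3, and the sterol list at 0.01 without knockout bone marrow 1. At an unadjusted p under 0.05 in limma, these lists held between 0 and 7 genes each. The most were 7 of the 21 reported targets, against 9.25% of all genes tested. Of 59 oxidative phosphorylation genes 48 had a higher value in bone marrow, as had 29 of 34 ribosomal protein genes. Bone marrow arrays all lay above spleen for 19 and 12 of them, against 7.62% of all genes tested. They lay below it for 1 and 0, against 8.65%. The centred levels were 0.10 to 0.15 and 0.01 to 0.05 in knockout bone marrow and -0.05 to 0.05 and -0.07 to -0.03 in knockout spleen.

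Markers of other cell types were measured since each tissue could bring its own strays into a sort. Granulocyte markers, abundant in marrow, had 0 of 11 tested members called and a median of 0.07, which was -0.07 without knockout bone marrow 1, 0.00 without knockout bone marrow 3 and -0.02 without knockout spleen 3. The log2 of their summed signal was 10.70 to 11.66 in knockout bone marrow and 10.00 to 11.08 in knockout spleen, so the ranges overlapped.
The granulocyte genes Ltf, Ly6g, Mmp8, Csf3r and Cxcr2 were among 13 members too dim to be tested. In wild type the granulocyte list was higher in marrow, at 12.18 to 12.44 against 9.35 to 10.27. There 7 of 11 members were called higher, against 4.34% of all genes tested. Monocyte and macrophage markers, which bear on Ccr2 and Capg since monocytes carry both, stood at 11.45 to 11.64 in knockout bone marrow and 11.45 to 11.63 in knockout spleen, and Csf1r, Adgre1 and Cd14 were too dim to be tested. The summed signal is set by the brightest members. By single genes, 6 of 8 tested monocyte and macrophage markers had a higher value in bone marrow, with a median of 0.15. That median was 0.35 without knockout spleen 3 and 0.02 without knockout bone marrow 1. B cell markers, which bear on Fcgr2b, stood at 9.60 to 9.76 and 9.64 to 9.90, with Cd79a and Ms4a1 too dim. Only 1 of 9 tested B cell markers had a higher value in bone marrow, with a median of -0.08. Cd22 of that list read lower in bone marrow, at -1.04 ± 0.21, and did not pass (adjusted p = 0.0796).

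By summed signal, which the brightest members set, some marker lists parted the tissues. Dendritic cell markers stood at 12.11 to 12.24 in knockout bone marrow and 12.39 to 12.54 in knockout spleen, plasma cell markers at 10.54 to 10.94 and 11.04 to 11.23, and markers of other innate lymphoid cells at 12.32 to 12.41 and 12.60 to 12.71. Spleen was higher in each, as for the NK markers, and stromal markers went the other way at 9.96 to 10.13 and 9.70 to 9.93. By the mean centred level, in which members count equally, the tissues overlapped in these 4 lists and not in the NK markers. Some members are on the NK lists too: Ncr1 and Klrg1 among the other innate lymphoid cell markers, and Slamf7 among the plasma cell markers. How far these genes set the summed signals was not tested. The dendritic genes Flt3, Xcr1, Clec9a and Siglech, the plasma cell gene Jchain and the stromal genes Cdh5 and Cxcl12 were too dim to be tested. T cell markers stood at 10.94 to 11.11 and 10.99 to 11.23, and progenitor markers at 9.56 to 9.92 and 9.37 to 9.68. Medians were -0.22 for dendritic cell, 0.26 for progenitor, 0.16 for platelet and megakaryocyte, and 0.07 for basophil and mast cell markers. Values above 0 were 5 of 13, 7 of 9, 7 of 9 and 2 of 3. At an unadjusted p under 0.05 in limma were 7, 4, 3 and 0 of them, against 9.25% of all genes tested. No member of these lists other than Itga2, itself an NK marker, passed, and their part in the called genes was not tested. Car1, a carbonic anhydrase gene of red cell precursors, stood at -1.78 ± 0.34 in the knockout (adjusted p = 0.0586) and at 1.69 ± 0.30 in wild type (adjusted p = 0.0101). The difference between the genotypes was -3.48 ± 0.48 and did not pass (limma, adjusted p = 0.071). It did pass without the run covariate, with the run as a random block, and with replicate numbers as a block, with or without the run. It also passed with median centring, with array weights and without knockout bone marrow 1. The red cell regulators Gata1 and Klf1 were too dim to be tested.

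The same tissue contrast in wild type shares no array with that of the knockout, though both use 1 estimate of the run and of the spread. In wild type 643 genes passed (5.37%), 519 higher (4.34%) and 124 lower (1.04%) in bone marrow, so 80.7% of the calls were higher. With arrays centred on their medians it was 977, with 92.2% higher. Without wild type bone marrow 1 it was 82, and without wild type spleen 3 it was 147. Of the 38 genes called in the knockout 19 were also called in wild type, 6 rises and 13 falls, each in the same direction. That is 50% of the knockout calls and 2.95% of the wild type calls. The sign was shared by 34 of the 38. The median size of the 38 was 1.13 in the knockout and 0.48 in wild type in the knockout's direction, and since the 38 were picked by the knockout values, the larger size there is not evidence of a difference. Genes higher in wild type bone marrow had a median of 0.74 in wild type and 0.19 in the knockout, with the same limit turned round. Across genes the 2 differences correlated at r = 0.349, or 0.478 without the run covariate. Genes are not independent replicates.

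**Figure D5:**
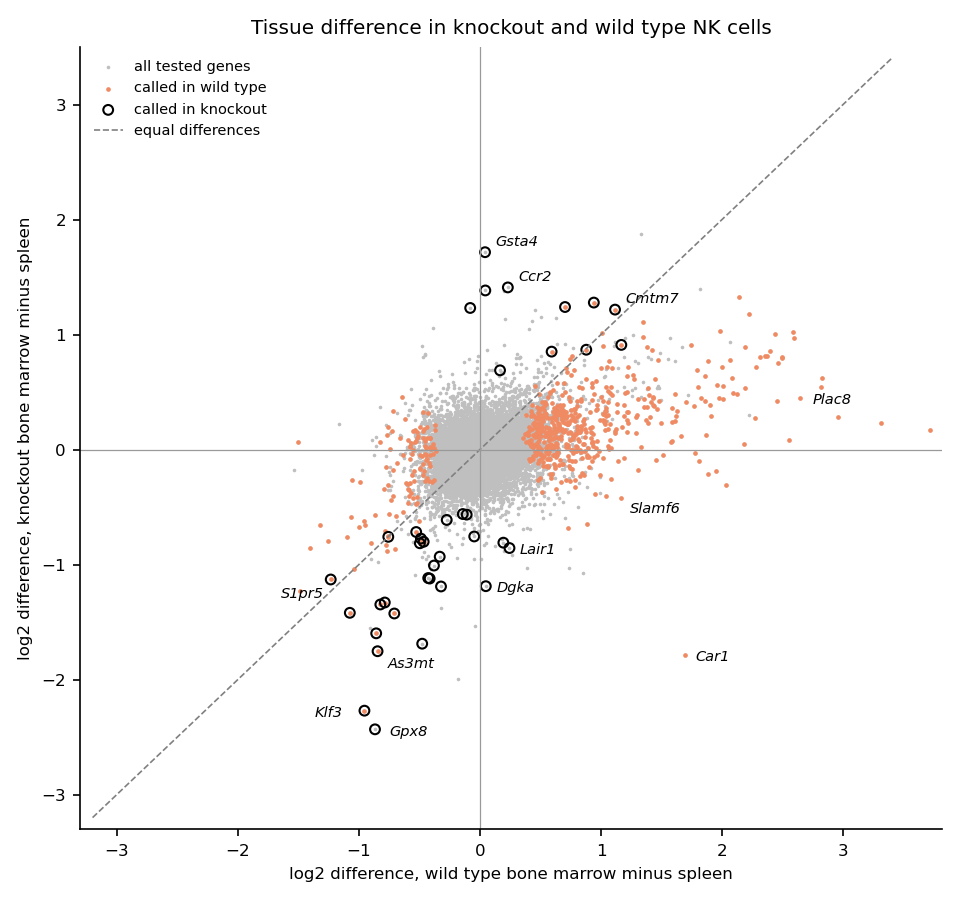
Log2 difference of bone marrow minus spleen in wild type (x axis) and knockout (y axis) for each gene tested; grey points are all genes, small coloured points those called in wild type, open circles those called in the knockout, and the dashed line marks equal differences. Most called genes have the same sign in both genotypes, and Klf3, Gpx8 and Ccr2 lie far from the line.

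The test of the difference between the genotypes called 1 gene of 11963 (0.00836%), with 1092 at an unadjusted p under 0.05 (9.13%). That gene was Slamf6, a receptor that binds itself on neighbouring lymphocytes. It read 4.47, 4.30 and 4.21 in knockout bone marrow and 4.75, 4.85 and 4.68 in knockout spleen. The wild type arrays read 8.35, 8.38 and 8.55 in bone marrow and 7.31, 7.32 and 7.13 in spleen. Every knockout array lay far below every wild type array and below the dimness limit of 5.49, so the gene was tested only through its wild type signal. The tissue difference was -0.42 ± 0.13 in the knockout (limma, adjusted p = 0.28) and 1.17 ± 0.11 in wild type (adjusted p = 0.0006), and these differed by -1.59 ± 0.18 (adjusted p = 0.0194). The knockout levels lay near the lower quartile of those arrays, 4.61 to 4.65, where log2 signals are compressed, so neither a direction in the knockout nor the exact size of the difference can be read from them. The call was lost without knockout bone marrow 3 (adjusted p = 0.0637), knockout spleen 3 (0.0889), wild type bone marrow 1 (0.148), wild type bone marrow 2 (0.0502) or wild type spleen 3 (0.181).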

How the data were processed

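Gene expression was measured on 12 arrays, 3 for each of 4 groups. Per the submitters' processing notes, the authors made the values with RMA in Affymetrix Expression Console, and the deposited values are log2 signals; no versions are named there. Log2 signals of dim probe sets are compressed, and precision is limited by having 3 arrays a group. Probe sets were named from the platform annotation, 1621 with several symbols and 12146 with none being left out, and 21698 of the 21789 kept matched RefSeq on GRCm38.p6. The probe set with the highest mean stood for its gene. The 11963 genes whose mean exceeded the 40th percentile (5.49) were tested, and list members below it are given as too dim.

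With limma 3.58.1 in R 4.3.3, a mean for each of the 4 groups and the run of array numbers were fitted over all 12 arrays (7 residual and 4.74 prior degrees of freedom), with two-sided tests and Benjamini-Hochberg adjustment over all genes at 0.05. Errors are standard errors of the fitted difference, which can differ from the difference of the means since the run is a term. Whether arrays come from separate mice is not given beyond the word biological replicate, so p-values measure the spread between these arrays. Replicate numbers were not taken as pairs, since nothing states that they mark the same mouse. Named genes were the 15 largest rises and falls called without overlap (11 rises passed), up to 4 of each list, and a fixed set. Added to these were the genes of smallest p in each direction of the difference between genotypes, of which only Slamf6 was called. The members and lists were chosen with earlier results of these data known. The fit was tested on simulated data, and 27 alternatives were run, 25 of them planned.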

Additional observations from a re-analysis of the deposited data

Results flagged for a closer look

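The tissue difference of Slamf6 in the knockout minus that in wild type was -1.59 ± 0.18 on the log2 scale and passed the test of that difference (limma, adjusted p = 0.0194). Over the alternatives in which it was tested the value ran from -1.69 to -1.39. The mean centred level of the erythroid marker list lay on opposite sides in the genotypes, with a knockout bone marrow minus spleen difference of -0.11. It was 0.04, -0.02 and -0.05 in knockout bone marrow against 0.07, 0.14 and 0.11 in knockout spleen. In wild type it was 0.25, 0.03 and -0.02 in bone marrow against -0.14, -0.20 and -0.21 in spleen. This difference was not tested.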

How the results depend on the processing

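All 38 genes called in the knockout kept their direction in each of the 27 alternatives that tested them; 3 of them were not tested with the stricter filter at the 60th percentile. Against 38 calls, the count was 87 without the run covariate, 119 with the run as a random block (consensus correlation -0.0599), 1 within run 1 and 2 in the 6 knockout arrays alone with the run, a fit chosen after seeing the data. Leaving out 1 array gave 1 to 38. Deviations of same-numbered arrays correlated at 0.129, 0.04 and 0.201 in the knockout and 0.127, 0.042 and 0.129 in wild type, all positive but not all above 0.1, and knockout bone marrow 2 correlated best with spleen 1, so a pairing is neither stated nor settled; the replicate block gave 49 calls with the run and 128 without it. For the difference between genotypes, 1 in the fit as reported, the count was 2 without the run, 12 with the random block, 5 and 11 with the replicate block with and without the run, 5 with median centring, 3 with trended and robust moderation, 2 with array weights, and 0 to 5 without 1 array. It was 0 with the 60th percentile filter and 0 with the mitosis level as a covariate, a fit also chosen after seeing the data (limma, 739 and 971 at an unadjusted p under 0.05). Besides Car1, some genes described above passed this test in alternatives only. They were Klf3, Dgka, Pde2a and Myc with the random block, and Klf3, Dgka, Gpx8 and Cass4 with the replicate block without the run. Gpx8 also passed with the replicate block and the run, Ccr2 with trended and robust moderation, and Lair1 with median centring. Dgka passed without knockout bone marrow 2 and Cdh1 without knockout bone marrow 1. For wild type, 643 as reported, the count was 977 with median centring, 1135 with array weights, 37 with the mitosis level, and 82 to 702 without 1 array. The cause of these changes was not tested. The other alternatives stayed within 1.5 times. Of 5124 values for named genes 4715 kept direction and side of the threshold, 330 lost a call, 79 gained one and 0 reversed. Of 1026 list medians 100 moved, and 57 changed sign. Signals near the lower quartile limit what can be read for dim genes.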
